A study of Mus musculus with 36 samples.

Results

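Livers of lean mice at ZT12 and at ZT0 were compared across all genes measured. ZT, zeitgeber time, counts hours from lights on, so ZT0 is the start of the light, when a nocturnal mouse ends its feeding phase, and ZT12 is the start of the dark, at the end of its rest phase. Both groups were C57BL/6J mice of 16 weeks that ate normal chow freely under 12 h of light and 12 h of dark. Nothing in the labels separates the 2 groups other than the hour of harvest. The labels used here do not state their sex. The comparison uses 6 of the 36 liver arrays of the study, 3 per group, and its other arrays are the remaining harvest times, every 4 h, and mice on a high fat diet (60% of energy from fat). The labels give 10 weeks on the diets. Each array is 1 liver sample, and the labels speak of animals without saying how samples were kept apart. The p-values speak of a spread among samples that is pooled within the 12 groups of all 36 arrays, except where another fit is named. That spread may be technical.

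Levels are log2(intensity + 16), a scale that understates the change of dim genes. Median intensities of the 6 arrays ran from 75.7 to 86.5, and arrays of a group correlated at 0.986 to 0.993, against 0.971 to 0.981 between the groups. The tissue carried the marks of liver. Alb, Ttr, Apoa1, Apob, Cps1 and Fgb, which encode secreted plasma proteins and a urea cycle enzyme of hepatocytes, lay above the 99.69th percentile of tested genes on each of the 6 arrays. None of these 6 genes was called different between the times, with Alb at 13.31 to 13.60 at ZT0 and 13.46 to 13.66 at ZT12. Of the other hepatocyte markers read, Hnf4a ranked lowest, at the 97.69th percentile on its lowest array. In whole liver, fewer cells of a type and less RNA per cell cannot be told apart.

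The liver clock is a feedback loop. The proteins of Arntl (also called Bmal1) and Clock bind E-boxes and switch on the Per, Cry and Nr1d genes and Dbp. PER and CRY proteins then block ARNTL and CLOCK, while the REV-ERB receptors made from Nr1d1 and Nr1d2 silence Arntl through RRE sites. DBP, TEF and HLF act on D-boxes, where NFIL3 opposes them. Feeding, body temperature and corticosterone, an adrenal hormone that in nocturnal rodents rises before dark, add daily signals of their own.

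Of 13956 genes tested, 603 were higher at ZT12 (4.32% of those tested) and 922 were lower (6.61%), at an adjusted p under 0.05 in a limma fit over all 36 arrays. Together 1525 genes, or 10.9%, differed between the ends of the rest phase and of the feeding phase. The median called difference was 0.46 (log2) in size, while the median difference of all tested genes was 0.00387. Differences of 2-fold or more were called for 67 higher and 72 lower genes, and of 4-fold or more for 13 and 11. The 3 arrays of one time all lay above the 3 of the other for 3985 genes (28.6%), far more than were called. Without ZT0 replicate 2, 614 genes were called lower in place of 922.

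Genes of the clock and its outputs made up most of the 12 largest rises. The largest rise was in Ciart (also called Chrono), a repressor of the ARNTL and CLOCK pair. It read 4.77, 5.10 and 4.73 at ZT0 and 9.59, 9.69 and 9.27 at ZT12, a difference of 4.65 ± 0.28 (SE of the fit, 3 arrays per group; adjusted p = 4.28e-13), or 25.1-fold. That fold is a ratio of offset levels and would change with the offset, as the ZT0 levels of Ciart were dim. Its lowest ZT12 array stood more than 4 log2 units above its highest ZT0 array. Dbp, the D-box activator, rose from 6.17, 6.07 and 5.96 to 10.14, 10.23 and 9.94, by 4.04 ± 0.17 (adjusted p = 7.18e-17), which was the smallest p of all genes. The largest fall was in Arntl itself, from 9.17, 9.13 and 9.02 to 6.10, 5.96 and 6.61, by 2.89 ± 0.20 on the log2 scale (adjusted p = 8.97e-12). In each of these 3 genes the arrays within a time were close together and the times lay far apart.

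**Figure D1:**
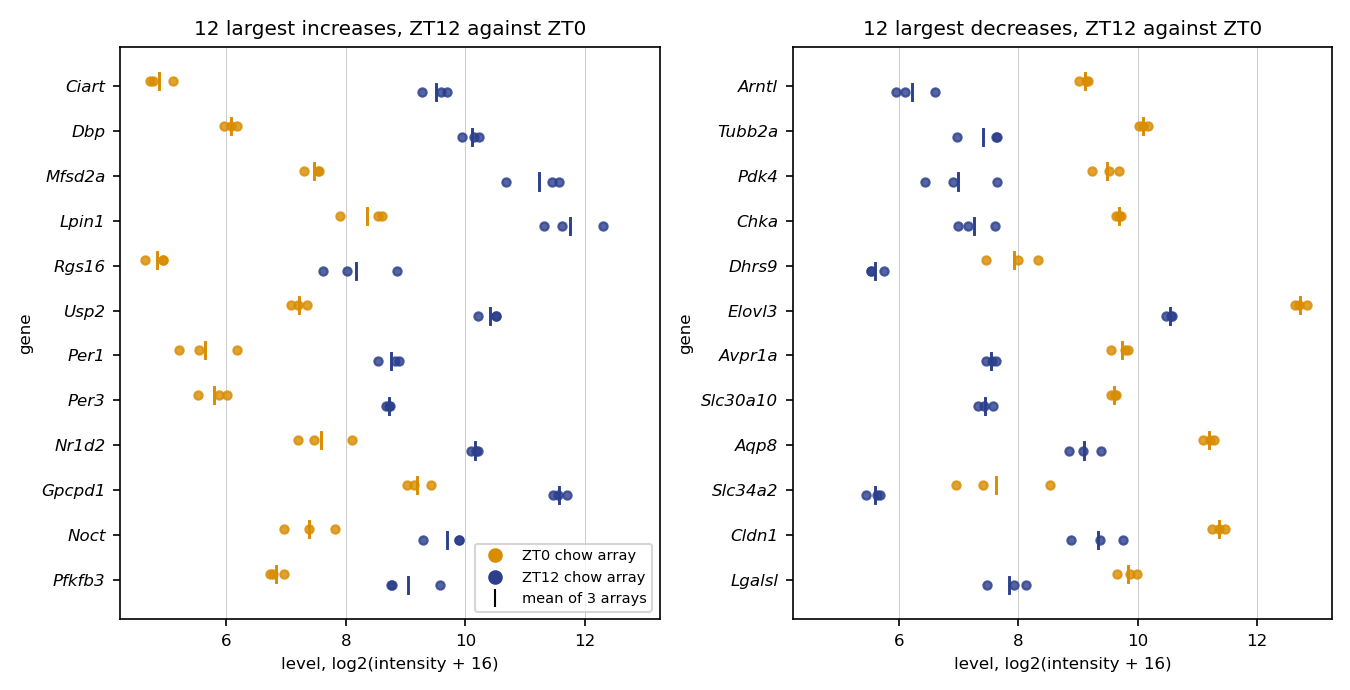
Levels, as log2(intensity + 16), on each of the 3 ZT0 arrays (orange) and 3 ZT12 arrays (blue) for the 12 genes with the largest called increase (left) and decrease (right). Vertical ticks are means of 3 arrays. In all 24 genes the arrays of the 2 times do not overlap, and the spread within a time is widest for Rgs16 at ZT12 (7.62 to 8.86) and Slc34a2 at ZT0 (6.95 to 8.53).

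Among the repressors of the loop, all 3 Per genes rose. Per1 went from 5.20, 6.17 and 5.54 to 8.88, 8.82 and 8.54, a rise of 3.11 ± 0.21 (adjusted p = 3.12e-12). Per3 gained 2.92 ± 0.14 (adjusted p = 2.83e-15), from 5.87, 6.00 and 5.52 to 8.73, 8.68 and 8.74. Per2 moved less, from 7.53, 7.98 and 7.76 to 8.996, 9.04 and 8.75, by 1.17 ± 0.13 (adjusted p = 1.35e-07). The Per genes thus shared a direction but not a size. Over the 6 times of the day Per1 had its highest mean at ZT12, Per3 at ZT8 and Per2 at ZT16.

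The 2 Cry genes went opposite ways. Cry2 rose by 0.81 ± 0.11 (adjusted p = 2.38e-06), from 8.01, 8.24 and 7.99 to 8.997, 8.84 and 8.84. Cry1 fell by 0.43 ± 0.12 on the log2 scale (adjusted p = 0.0182), from 8.16, 7.87 and 7.88 to 7.62, 7.28 and 7.71, groups that lay close but did not overlap. The Cry1 call was lost without ZT0 replicate 1 or ZT12 replicate 2, with adjusted p up to 0.192. A limma fit on the 6 arrays alone also lost the call (adjusted p = 0.0682). The day profile of Cry1 had its highest mean at ZT20 and its lowest at ZT4, so ZT0 and ZT12 sampled its flanks.

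The activators fell together. Clock, the partner of Arntl, went from 10.43, 10.32 and 10.33 to 9.12, 9.07 and 9.30, by 1.19 ± 0.10 on the log2 scale (adjusted p = 2.47e-10), a smaller step than that of Arntl. Both genes had their highest group mean of the day at ZT0 and their lowest at ZT12. The REV-ERB genes rose. Nr1d2 went from 7.20, 7.46 and 8.11 to 10.10, 10.22 and 10.17, by 2.58 ± 0.17 (adjusted p = 1.92e-12). Nr1d1 read 7.22, 7.74 and 9.04 at ZT0 and 9.26, 9.09 and 9.34 at ZT12, a rise of 1.23 ± 0.26 (adjusted p = 0.00129). The third ZT0 array was the highest of its group in both REV-ERB genes and nearly reached the ZT12 arrays in Nr1d1. Without it the rise of Nr1d1 was 1.76, and in a fit on the 6 arrays alone its adjusted p was 0.0644. Nr1d1 had its highest mean at ZT4 (11.15) and its lowest at ZT20 (6.64), so both times lay on slopes of its profile.

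Bhlhe40 and Bhlhe41, E-box repressors also called Dec1 and Dec2, rose by 1.103 ± 0.20 and 1.13 ± 0.17 (adjusted p = 0.000284 and 1.3e-05). In all, 9 of the 17 core clock genes tested rose and 3 fell, against 4.32% and 6.61% of all tested genes. The 5 that were not called were Rora, an activator at RRE sites, Csnk1d and Csnk1e, kinases that act on PER proteins, and Btrc and Fbxl21, which take part in protein turnover. Their differences lay between -0.26 and 0.08, and in each of them the arrays of the 2 times overlapped. The counts of called core clock genes were 9 higher and 2 or 3 lower with any of the 6 arrays left out.

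**Figure D2:**
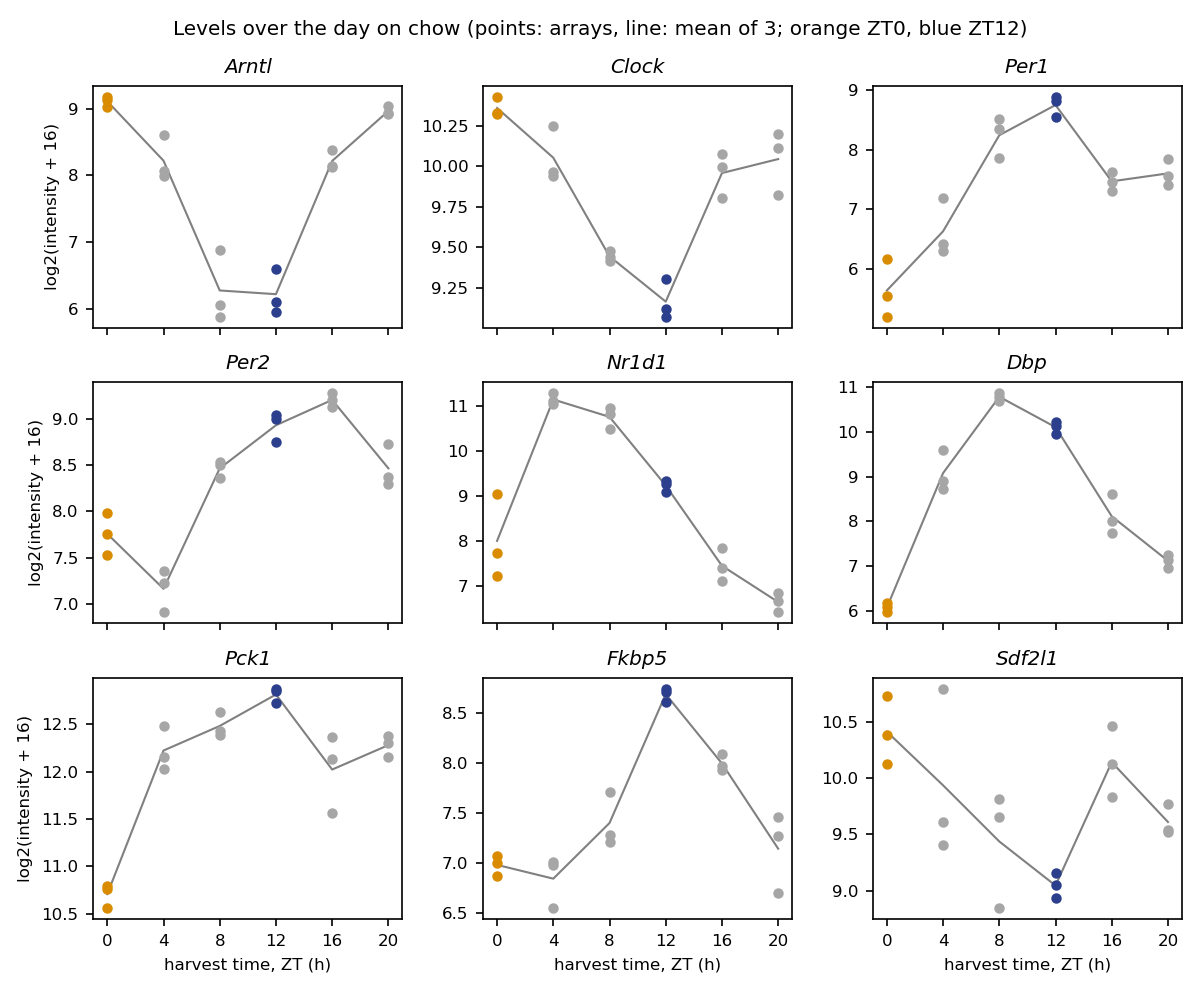
Levels, as log2(intensity + 16), of 9 genes on chow at the 6 harvest times (points are single arrays, the line joins means of 3, with ZT0 in orange and ZT12 in blue). Arntl and Clock are highest at ZT0 and lowest at ZT12, Per1, Pck1 and Fkbp5 are highest at ZT12, and Nr1d1 and Dbp are highest at ZT4 and ZT8.

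Promoter sequence is shown for the genes of the 12 largest rises whose window held one of 4 motifs, and for Arntl, the gene with the largest fall, all chosen after their values were seen. The searched letters were CACGTG for the E-box, TTATGTAA or TTATGCAA for the D-box and TGACGTCA for the cyclic AMP response element (CRE), each on both strands, and the RRE by its name. Windows ran from 250 bases before to 50 bases after each RefSeq start site (build GRCm38.p6), and 164 of the 208 genes named by rule had one. Capitals mark the motif, and positions count from the start site, with 1 as its first base and no 0. The stretch of Ciart (chr3:95882229-95882478, minus strand, the 250 bases before the start) holds 3 E-boxes, with first bases at -116, -58 and -44. That of Per1 (chr11:69098699-69098948, plus strand) holds an E-box at -166 and a D-box at -24. Per3 (chr4:151044666-151044915, minus strand) has 2 D-boxes at -205 and -158, and Pfkfb3 (chr2:11502091-11502340, minus strand) an E-box at -53. For Arntl the 30 bases at chr7:113207528-113207557 (plus strand) hold an RRE from 27 to 37 bases past the start.
Ciart: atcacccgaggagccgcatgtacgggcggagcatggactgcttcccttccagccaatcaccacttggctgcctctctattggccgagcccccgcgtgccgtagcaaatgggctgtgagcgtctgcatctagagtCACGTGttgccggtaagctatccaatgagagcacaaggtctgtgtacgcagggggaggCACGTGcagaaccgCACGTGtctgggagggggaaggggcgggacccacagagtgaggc
Per1: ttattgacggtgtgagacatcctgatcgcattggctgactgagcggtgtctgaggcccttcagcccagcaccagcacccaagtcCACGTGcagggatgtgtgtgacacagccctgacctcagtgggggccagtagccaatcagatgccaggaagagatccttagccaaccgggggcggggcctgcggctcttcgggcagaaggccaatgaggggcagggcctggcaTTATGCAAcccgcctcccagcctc
Per3: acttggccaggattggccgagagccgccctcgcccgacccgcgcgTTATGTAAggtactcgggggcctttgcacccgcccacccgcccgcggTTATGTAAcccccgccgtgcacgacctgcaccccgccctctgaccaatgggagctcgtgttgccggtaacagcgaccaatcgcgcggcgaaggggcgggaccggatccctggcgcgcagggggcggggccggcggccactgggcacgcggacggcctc
Pfkfb3: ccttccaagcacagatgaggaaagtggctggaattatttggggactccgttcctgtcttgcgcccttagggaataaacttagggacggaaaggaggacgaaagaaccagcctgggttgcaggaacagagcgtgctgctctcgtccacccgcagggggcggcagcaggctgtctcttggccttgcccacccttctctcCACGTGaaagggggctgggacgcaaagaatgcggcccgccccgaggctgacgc
Arntl: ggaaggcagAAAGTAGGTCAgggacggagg

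Over all genes with a window, the E-box was in 8.09%, the D-box in 1.98%, the CRE in 2.03% and the RRE in 0.459%. Among tested genes the E-box share was 11.2%. It was 19.8% (96 of 485) among genes called higher at ZT12 and 9.28% (70 of 754) among those called lower. The D-box shares were 2.68% (13 of 485) and 0.663% (5 of 754), against 1.61% of tested genes. The CRE stood at 3.3% and 3.58%, close to the 3.27% of tested genes. An RRE was found in 0 of the 485 and 2 of the 754. Among the 12 largest decreases, Aqp8 also held an E-box and Tubb2a a CRE. A match is a description of letters, not of a site in use, and no match says only that these letters are not in this window.

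Genes known as outputs of the clock followed: 15 of 19 tested rose and 3 fell. Tef, a D-box activator like Dbp, went from 7.99, 8.00 and 8.09 to 10.09, 9.99 and 9.77, by 1.92 ± 0.13 (adjusted p = 4.88e-12). The ZT12 arrays of Tef all stood well above those of ZT0. Nfil3, the D-box repressor, fell by 1.43 ± 0.14 on the log2 scale (adjusted p = 1.86e-08), from 9.24, 9.16 and 9.31 to 7.62, 7.77 and 8.04. Hlf, the other activator of that family, differed by 0.31 ± 0.10 (adjusted p = 0.0324), a call that was lost without ZT0 replicate 1 or 3 or ZT12 replicate 1 or 3. The Hlf call was also lost on the 18 chow arrays (adjusted p = 0.0744) and on the 6 arrays (0.083). Median centring (0.117) and the fit without an intensity filter (0.0503) lost it too. Dbp and Tef were thus on the opposite side of the comparison from Nfil3.

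Usp2, a ubiquitin protease, rose from 7.35, 7.07 and 7.19 to 10.52, 10.52 and 10.22, by 3.21 ± 0.21 (adjusted p = 2.07e-12). Noct, an NADPH phosphatase also called nocturnin, rose by 2.30 ± 0.26 (adjusted p = 1.88e-07), from 6.96, 7.82 and 7.39 to 9.90, 9.89 and 9.29. Rgs16, which damps signals of G proteins, rose by 3.33 ± 0.68 (adjusted p = 0.000827), with 4.94, 4.93 and 4.63 at ZT0 and a wide 8.86, 7.62 and 8.02 at ZT12. With an offset of 64 in place of 16, the Rgs16 ZT12 minus ZT0 difference was 2.14. Wee1, the kinase that holds back entry into mitosis, gained 1.91 ± 0.21 (adjusted p = 1.39e-07). Coq10b, a coenzyme Q binding protein, Upp2, a uridine phosphorylase, Alas1, which starts heme synthesis, and Gys2, the liver glycogen synthase, rose by 1.91, 1.71, 1.01 and 0.90. Tspan4 rose by 0.57, Klf9 by 0.48 and Klf10 by 0.63. The Klf9 call was lost without ZT0 or ZT12 replicate 2, and that of Klf10 without ZT0 replicate 1 or 3 or ZT12 replicate 1 or 2. Klf10 was also not called on the 18 chow arrays, after median centring, with an offset of 64, without the intensity filter or with array weights. Elovl3, an elongase of very long fatty acids, and Tars, threonyl-tRNA synthetase, fell by 2.19 and 0.98 on the log2 scale. Pnpla3 differed by -0.12 ± 0.15 (adjusted p = 0.706).

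The time points sat near the turning points of many called genes. Of the 603 higher genes, 64.3% had their highest group mean of the day at ZT12 and 26.5% at ZT8, and 53.6% had their lowest at ZT0. Of the 922 lower genes, 74.3% peaked at ZT0 and 67.6% had their lowest mean at ZT12. Over all tested genes 13.5% peaked at ZT12 and 17.9% at ZT0. These shares use the same ZT0 and ZT12 arrays as the calls and are given as a description.

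Of 29 tested genes of the glucocorticoid receptor and its targets, 18 rose, 1 fell and 10 were not called, with a median difference of 0.67 over the list. Counts in this list and those below stand beside 4.32% higher and 6.61% lower over all tested genes. Fkbp5, a cochaperone of the glucocorticoid receptor and a widely used readout of it, rose from 6.87, 7.07 and 6.999 to 8.72, 8.75 and 8.61, by 1.71 ± 0.15 (adjusted p = 1.34e-09). Its day profile had a single high at ZT12. Mfsd2a, a transporter of lysophospholipids, gained 3.77 ± 0.43 (adjusted p = 1.72e-07), from 7.30, 7.55 and 7.53 to 11.46, 11.56 and 10.69. Pck1, the enzyme that commits carbon to glucose synthesis, rose by 2.10 ± 0.18 (adjusted p = 4.19e-10), from 10.77, 10.56 and 10.80 to 12.84, 12.88 and 12.72. For these 3 genes each ZT12 array lay above each ZT0 array by more than 1 log2 unit.

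The list also held Lpin1 and Angptl4. Lpin1, a phosphatidate phosphatase and coactivator, rose from 7.90, 8.55 and 8.61 to 11.62, 12.31 and 11.33, by 3.40 ± 0.24 (adjusted p = 9.52e-12). Angptl4, a secreted inhibitor of lipoprotein lipase, rose by 1.86 ± 0.23 (adjusted p = 9.16e-07). Cebpb and Cebpd, transcription factors of hepatocytes, rose by 1.14 and 0.60, Mt1 and Mt2, the metallothioneins, by 1.16 and 1.61, and Tsc22d3 (also called Gilz) by 0.58. Chka, a choline kinase, went the other way, from 9.69, 9.71 and 9.63 to 7.16, 6.99 and 7.60, a fall of 2.43 ± 0.17 on the log2 scale (adjusted p = 7.31e-12). Nr3c1, the receptor itself, differed by 0.13 and Sgk1 by 0.01, and neither was called. Lpin1, Per1 and Klf9 are also in the clock lists, so the lists are not separate evidence. With any of the 6 arrays left out, 14 to 17 of the 29 were called higher.

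Of 35 tested genes of endoplasmic reticulum folding and the unfolded protein response, 14 fell, 1 rose and 20 were not called, and the list's median difference was -0.25. The shares of all tested genes were 6.61% lower and 4.32% higher. Pdia4, a disulfide isomerase, went from 11.49, 11.72 and 11.72 to 11.01, 10.93 and 11.11, a fall of 0.63 ± 0.09 on the log2 scale (adjusted p = 9.89e-06). Sdf2l1, a partner of the chaperone BiP, fell by 1.36 ± 0.29 (adjusted p = 0.00144), from 10.12, 10.38 and 10.73 to 9.05, 9.16 and 8.94. Manf, a secreted factor of this response, fell by 0.67 and Ostc, a part of the glycosylation machinery, by 0.45. The member that rose was Herpud1, which helps to clear misfolded proteins, by 0.68 ± 0.14 (adjusted p = 0.000807). The regulator genes Atf6 (0.16) and Xbp1 (-0.06) were not called. ZT0 replicate 3 was the highest ZT0 array in Sdf2l1, Manf, Ostc and Herpud1, and without it 6 of the 35 genes were called lower.

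**Figure D3:**
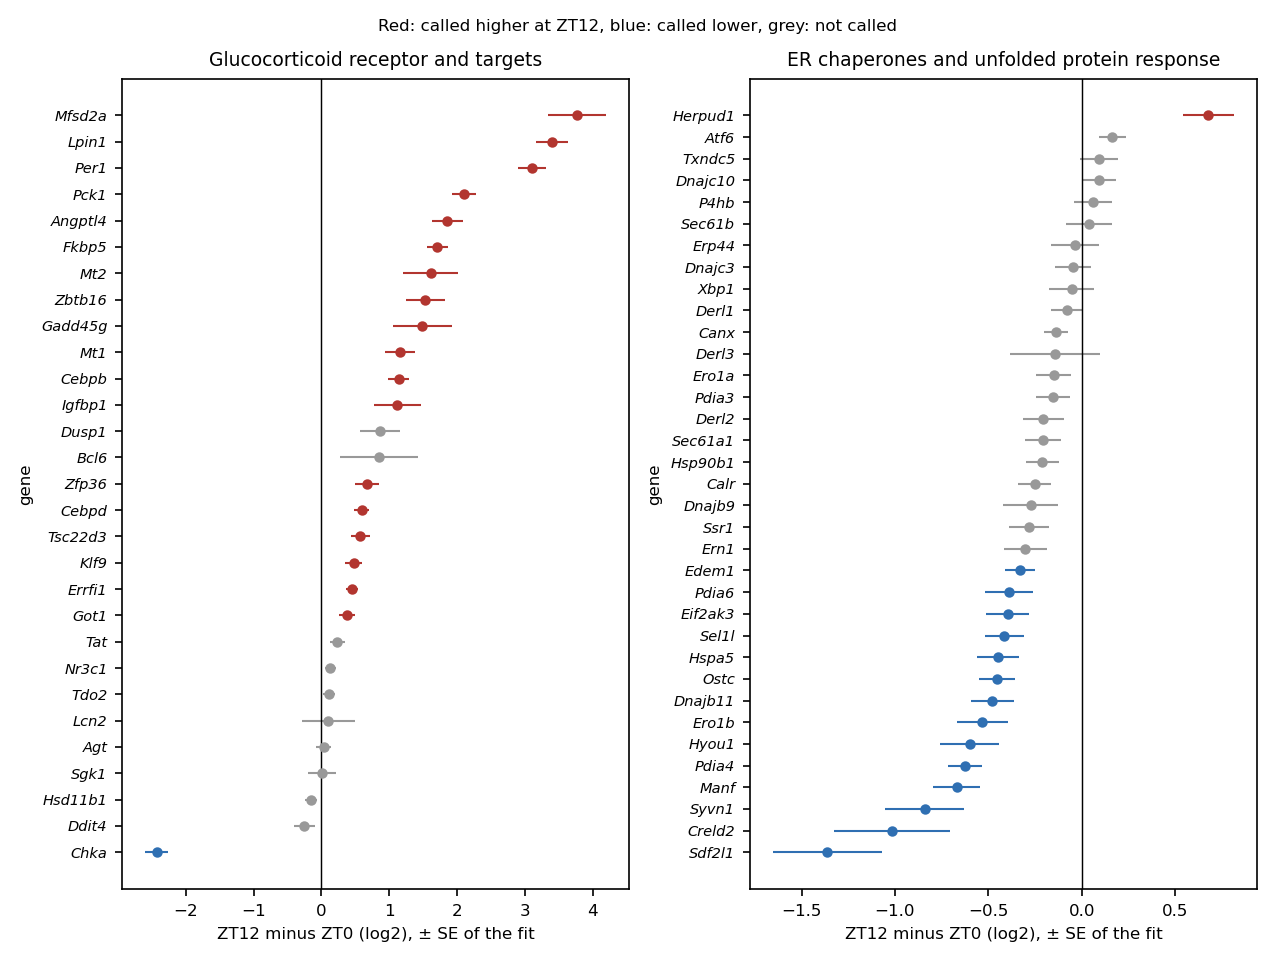
ZT12 minus ZT0 difference on the log2 scale, with the SE of the fit as bars, for the 29 tested glucocorticoid receptor and target genes (left) and the 35 tested genes of endoplasmic reticulum chaperones and the unfolded protein response (right). Red marks genes called higher, blue genes called lower and grey genes not called, with 18 red and 1 blue on the left and 1 red and 14 blue on the right.

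Of 23 heat shock genes tested, 8 fell, 1 rose and 14 were not called, with a median of -0.17. Hsp90aa1, the inducible HSP90, went from 10.96, 10.83 and 11.12 to 9.87, 10.02 and 10.17, a fall of 0.95 ± 0.15 on the log2 scale (adjusted p = 2.16e-05). Hspb1, a small heat shock protein, fell by 1.09, and the HSP90 cochaperones Fkbp4 and Stip1 by 0.64 and 0.46. Hspa2, the member that rose, gained 0.69 ± 0.13 (adjusted p = 0.000322) from dim levels of 5.82 to 6.04. Hsp90aa1, Fkbp4 and Stip1 had their highest mean of the day at ZT16. The cold-inducible RNA-binding gene Rbm3 rose by 0.83 ± 0.14 (adjusted p = 6.11e-05), the one call among 3 such genes tested. Of the 24 genes of the ATF4 stress response, 3 rose and 3 fell. Atf5 fell by 1.13 ± 0.11 (adjusted p = 3.29e-09), while Atf4 and Ddit3, at -0.38 and -0.44, lost their calls without ZT0 replicate 2 or 3 or ZT12 replicate 1 or 3, which left 1 of the 24 lower.

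Of 26 tested genes of gluconeogenesis and the fuel switch, 11 rose, 2 fell and 13 were not called, and the median was 0.22. Among all tested genes 4.32% rose and 6.61% fell. Besides Pck1, Slc37a4, the transporter that brings glucose 6-phosphate to its final phosphatase, rose by 0.81 ± 0.08 (adjusted p = 3.65e-08), from 10.46, 10.72 and 10.67 to 11.59, 11.43 and 11.25. Foxo3 and Foxo1, transcription factors held back by insulin, rose by 0.78 and 0.65. The members that fell were Pdk4, a kinase that shuts pyruvate dehydrogenase, and Ppp1r3c, a subunit that steers protein phosphatase 1 to glycogen. Pdk4 went from 9.52, 9.68 and 9.24 to 6.90, 6.44 and 7.64, a fall of 2.49 ± 0.37 on the log2 scale (adjusted p = 1.28e-05). Ppp1r3c fell by 1.75 ± 0.23 (adjusted p = 1.77e-06). Both had their highest mean at ZT0. With an array left out, 6 to 9 of the 26 genes were called higher, with 6 without ZT0 replicate 1, and 7 without ZT0 replicate 3 or ZT12 replicate 2.

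Glycogen genes gave 5 higher and 1 lower of 21. Gys2 rose from 10.71, 10.76 and 10.89 to 11.79, 11.73 and 11.54 (adjusted p = 2.47e-07) and Ppp1r3g, another glycogen-targeting subunit, by 0.53 ± 0.13 (adjusted p = 0.00666), while Ppp1r3c fell as above. Ppp1r3g and Ppp1r3c therefore moved in opposite directions, with Ppp1r3g at dim levels (means of 6.18 at ZT0 and 6.70 at ZT12). Without ZT0 replicate 3 or ZT12 replicate 1, 3 of the 21 were called higher. In glucose uptake and glycolysis 5 of 21 rose and 2 fell. Pfkfb3, which makes the activator of phosphofructokinase, rose from 6.78, 6.74 and 6.97 to 8.77, 9.57 and 8.75, by 2.20 ± 0.23 (adjusted p = 4.72e-08). Its relative Pfkfb2 rose by 0.65 and Slc2a2, the main glucose transporter of liver, by 0.64. Gckr, which holds glucokinase in the nucleus, fell by 0.54 ± 0.09 (adjusted p = 6.2e-05). Without ZT12 replicate 1, 3 of the 21 glucose genes were called higher, and 1 was called lower without replicate 2 or 3 of either time. None of 11 pentose phosphate genes was called in the fit over 36 arrays. Pgd, an NADPH-forming enzyme at -0.42 (adjusted p = 0.0718), was called on the 18 chow arrays (0.00679), on the 6 arrays (0.0368) and with array weights (0.0238). For insulin signalling 3 of 33 rose and 2 fell, against 4.32% and 6.61% of all tested genes, so the share that fell was near that of all genes. The members that fell were Irs1, an adaptor of the insulin receptor, by 0.76 and Cited2 by 0.79. Without ZT0 replicate 3 or ZT12 replicate 2, 1 of the 33 was called higher. The Irs1 ZT12 minus ZT0 difference was -0.40 when its probe sets were averaged.

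In fatty acid and triglyceride synthesis 6 of 33 rose and 4 fell, with a median of -0.12. Enzymes of triglyceride assembly were on both sides, with Agpat2 down by 0.46 (adjusted p = 0.00381) and the lipins up. Lpin2, a relative of Lpin1, rose from 9.46, 9.54 and 9.62 to 11.12, 11.06 and 11.17, by 1.58 ± 0.12 (adjusted p = 6.5e-11). Thrsp, a lipogenic factor also called Spot14, rose by 1.31 ± 0.20 (adjusted p = 1.64e-05). Elovl3 went down from 12.70, 12.84 and 12.63 to 10.47, 10.56 and 10.58 (adjusted p = 3.29e-12). Insig2, which retains the SREBP precursors in the endoplasmic reticulum, fell by 1.54 ± 0.14 on the log2 scale (adjusted p = 1.61e-09), from 11.83, 11.57 and 11.76 to 10.14, 10.06 and 10.34.

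Of the 19 cholesterol synthesis genes, 2 fell and 1 rose, the latter not called without ZT0 replicate 3 or ZT12 replicate 2. These counts stand beside 6.61% lower and 4.32% higher over all tested genes. Mvd, of the mevalonate pathway, fell by 1.05 ± 0.23 (adjusted p = 0.0018) and Hmgcs1, an early enzyme of that pathway, by 0.68 ± 0.15 (adjusted p = 0.00257). Srebf2, which drives the pathway, fell by 0.40 and Npc1, which moves cholesterol out of lysosomes, rose by 0.52. In fatty acid oxidation 7 of 47 rose and 2 fell, with the share that fell below that of all tested genes. Cpt1a, the gate for fatty acids into mitochondria, rose from 11.16, 11.27 and 11.19 to 11.91, 11.96 and 11.87, by 0.71 ± 0.08 (adjusted p = 3.73e-07). Ppara, the receptor that governs this pathway, rose by 0.66 and Eci2, an isomerase of peroxisomal oxidation, by 0.59, while Pdk4, a PPARA target, fell. Among lipid droplet genes Pnpla2, the main triglyceride lipase, rose by 0.81 ± 0.12 (adjusted p = 1.29e-05) and Plin2, a droplet coat protein, fell by 0.61 ± 0.10 (adjusted p = 0.000108). Apoa5, which promotes clearance of plasma triglyceride, was the 1 of 17 apolipoprotein genes called, at 0.56 ± 0.10 (adjusted p = 0.000175).

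For bile acids and sterol export 3 of 31 rose and 6 fell. Abcg5 and Abcg8, which form the transporter of cholesterol into bile, rose together. Abcg5 went from 9.56, 9.46 and 9.62 to 10.75, 10.62 and 10.66, by 1.13 ± 0.12 (adjusted p = 2.78e-08), and Abcg8 by 0.84 ± 0.13 (adjusted p = 4.61e-05). Hsd3b7, an early enzyme of bile acid synthesis, fell by 0.85 ± 0.08 (adjusted p = 1.25e-08), from 11.40, 11.66 and 11.52 to 10.63, 10.74 and 10.67. Atp8b1, a phospholipid flippase of the canalicular membrane, fell by 0.47. The lower count was 2 without ZT0 replicate 2 or ZT12 replicate 3 and 3 without ZT12 replicate 1 or 2.

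Several amino acid transporters were higher at ZT12. Of 20 genes of the urea cycle and glutamine handling, 6 were higher and 2 lower, with a median of 0.20. Slc38a2, a glutamine and alanine transporter, rose by 1.06 ± 0.10 (adjusted p = 5.31e-09), from 10.26, 10.33 and 10.55 to 11.39, 11.65 and 11.29. Slc7a2, an arginine transporter, rose by 0.99 ± 0.13 (adjusted p = 1.59e-06). Slc38a3, the main glutamine transporter of liver, rose by 0.39 and Slc1a2, a glutamate transporter, by 0.52, and Slc1a4, a transporter of small neutral amino acids, fell by 0.93 ± 0.16 (adjusted p = 9.65e-05). In amino acid breakdown 7 of 46 genes fell and 2 rose, and the list's median was -0.02. The share that rose was near the 4.32% of all tested genes, of which 6.61% fell. With any of the 6 arrays left out, 0 or 1 of the 46 was called higher. Gldc and Amt, of the glycine cleavage system, fell by 0.63 and 0.58, Ddc, a decarboxylase, by 0.94 and Kynu, of tryptophan breakdown, by 0.39. Fpgs, which traps folate in cells, fell by 0.80 ± 0.08 (adjusted p = 3.53e-08), while Slc19a1, which imports folate, rose by 0.52. For NAD, Nampt, the rate-limiting enzyme of salvage, rose from 9.37, 9.29 and 9.34 to 10.65, 10.80 and 10.77, by 1.41 ± 0.12 (adjusted p = 4.71e-10), and Nmrk1, a nicotinamide riboside kinase, by 0.91.

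Receptors and handling of foreign compounds were higher where they were called, in 7 of 46 genes, with none lower and a median of 0.15. Nr1i2 and Nr1i3 encode PXR and CAR, the main drug-sensing receptors. Nr1i2 went from 9.38, 9.48 and 9.44 to 10.25, 10.11 and 10.14, by 0.73 ± 0.10 (adjusted p = 6.22e-06), and Nr1i3 by 0.62 ± 0.14 (adjusted p = 0.00285). Abcb1a, a drug efflux pump, rose by 0.92 ± 0.17 (adjusted p = 0.000235) from dim levels of 5.97 to 6.14. Alas1, which supplies heme to cytochromes P450, rose from 11.30, 10.91 and 11.55 to 12.11, 12.71 and 11.98. Without ZT0 replicate 3, 4 of the 46 were called. In the glutathione list 4 of 45 fell and 2 rose (1 without ZT0 or ZT12 replicate 1), near the 6.61% and 4.32% of all tested genes. Gclc, which limits glutathione synthesis, stood at 11.86 on each ZT0 array and 11.36, 11.22 and 11.17 at ZT12, a fall of 0.61 ± 0.12 (adjusted p = 0.000357). Of the manganese and zinc carriers in the heme and metal list, Slc30a10, an exporter of manganese, fell by 2.16 ± 0.17 on the log2 scale (adjusted p = 6.07e-11) and Slc39a14, an importer, rose by 0.58 ± 0.08 (adjusted p = 1e-05). Exporter and importer were on opposite sides.

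**Figure D4:**
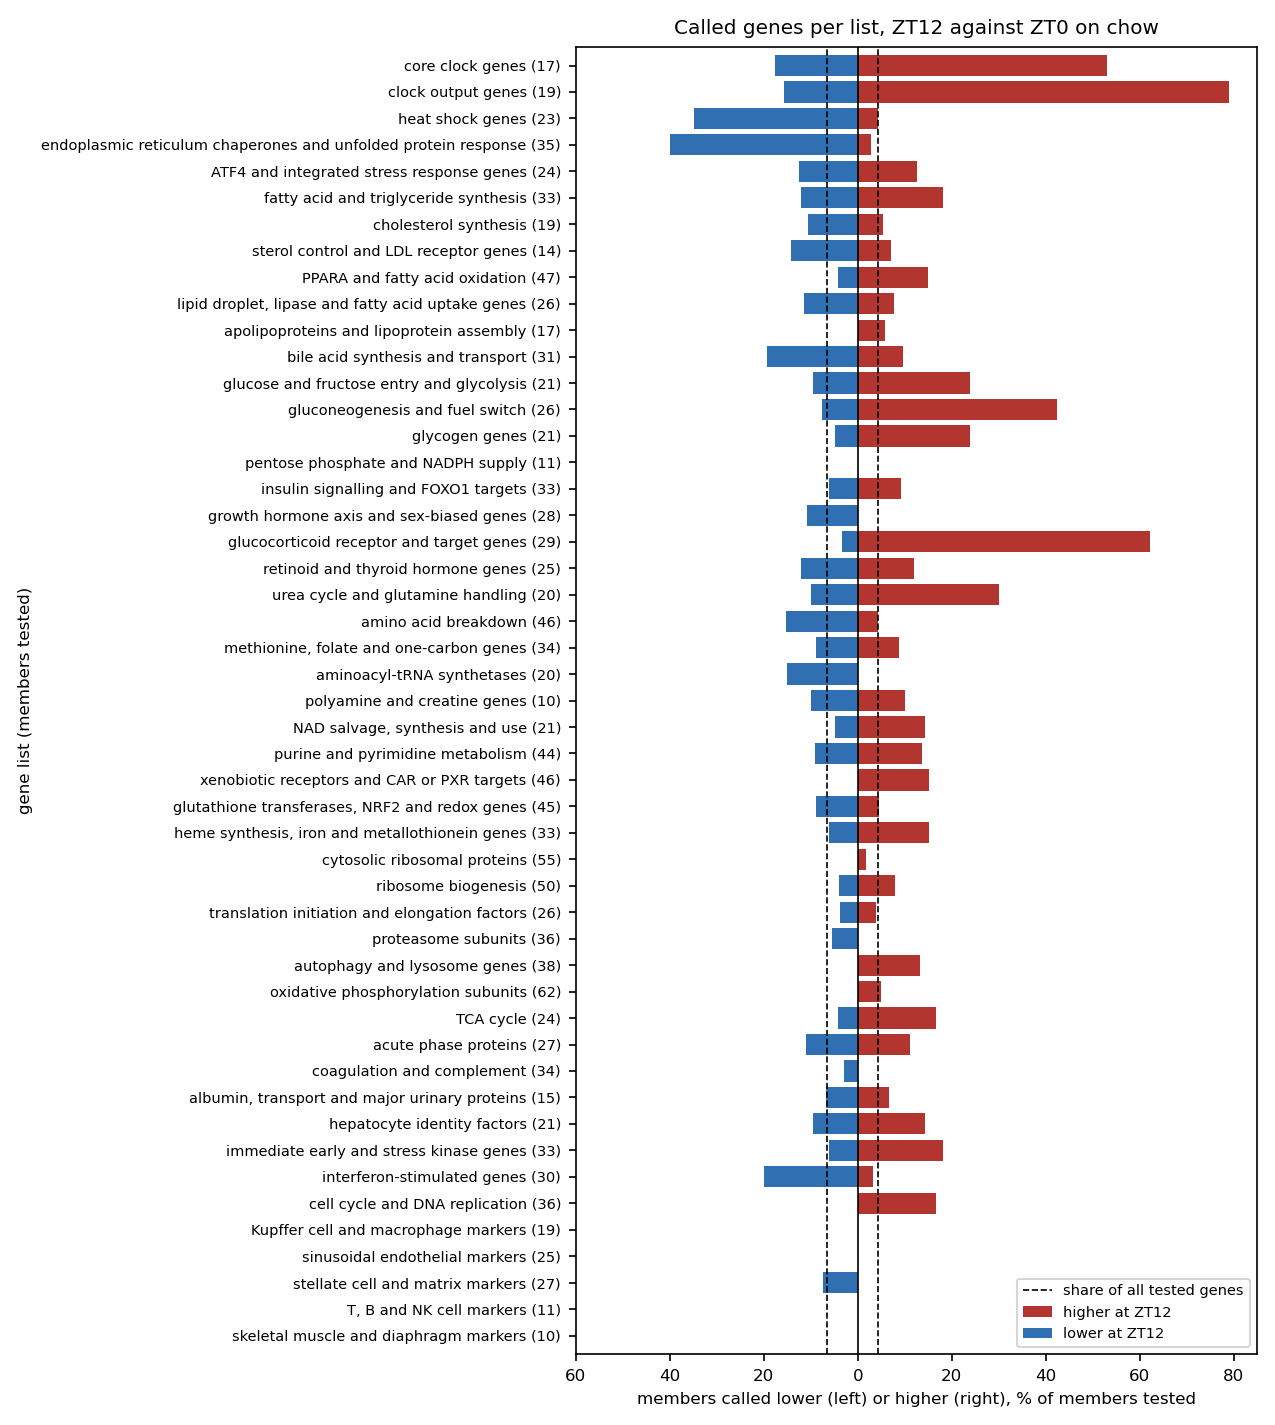
Percent of tested members called higher (right, red) or lower (left, blue) at ZT12, for each list of 10 or more tested genes, whose number stands in brackets. Dashed lines give the shares of all tested genes, 4.32% higher and 6.61% lower. The clock output, glucocorticoid and core clock lists reach farthest to the right, with 15 of 19, 18 of 29 and 9 of 17, and the endoplasmic reticulum list (14 of 35) and heat shock list (8 of 23) farthest to the left.

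Several large groups had few calls, near or below the shares of all genes. Of 55 cytosolic ribosomal protein genes 1 was called, Rps15a at 0.46, whose arrays overlapped and whose call was lost without ZT0 replicate 1 or 3 or ZT12 replicate 2 or 3. For oxidative phosphorylation 3 of 62 rose, and none did without ZT0 replicate 3 or ZT12 replicate 2 (1 without ZT0 replicate 1). Of 34 coagulation and complement genes 1 was called (Mbl1), of 36 proteasome genes 2, and of 26 translation factor genes 2 (Eif2b3 and Eif1a). Mbl1, Eif2b3 and the proteasome gene Psmd7 each lost the call with any of the 6 arrays left out, and Eif1a without ZT12 replicate 2. Autophagy and cell cycle genes were not among these groups, with shares called higher above the 4.32% of all tested genes. Autophagy genes rose in 5 of 38, with Bnip3, a receptor for removal of mitochondria, up by 0.81 ± 0.08 (adjusted p = 2.94e-08) and Ulk1, the kinase that starts autophagy, by 0.73 ± 0.11 (adjusted p = 1.06e-05). Cell cycle genes rose in 6 of 36, led by Wee1 and by Plk3, a stress-activated kinase, at 1.69 ± 0.37 (adjusted p = 0.00192), whose second ZT12 array read 11.11 beside 9.61 and 9.58. Without ZT12 replicate 1, 3 of the 36 were called.

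In purine and pyrimidine metabolism 6 of 44 rose and 4 fell, with Upp2 and Xdh, xanthine dehydrogenase, higher and Cda, cytidine deaminase, and Ampd2, an AMP deaminase, lower, by 0.95 and 0.61 on the log2 scale. Without ZT0 replicate 1, 7 of the 44 were called lower. Retinoid and thyroid hormone genes gave 3 higher and 3 lower of 25, against 4.32% and 6.61% of all tested genes. Dhrs3, a retinaldehyde reductase, was down by 0.79 and Thra, a thyroid hormone receptor, by 0.54. In the growth hormone axis Stat5a and Stat5b, which carry the signal of its receptor, fell by 0.59 and 0.37, and with Elovl3 made up the 3 calls among 28 genes. Differences in that list ran from -2.66 to 1.55, neither of them called, with a median of 0.14. Stat5b lost its call without ZT0 replicate 1 or 2 or ZT12 replicate 2 or 3, and on the 18 chow arrays and the 6 arrays (adjusted p = 0.0511 and 0.0512). Of 24 TCA cycle genes 4 rose and 1 fell (2 rose without ZT12 replicate 2), with Fh1, fumarase, up by 0.53 and Cs, citrate synthase, down by 0.32. That 1 of 24 was below the 6.61% of all tested genes. Cs lost its call without ZT0 replicate 2 or 3 or ZT12 replicate 1 or 3, and on the 6 arrays (adjusted p = 0.0715). Aminoacyl-tRNA synthetases had 3 of 20 lower and none higher, and 1 lower without ZT0 replicate 3 or ZT12 replicate 3. Among immediate early genes 6 of 33 rose and 2 fell, led by Mknk2, a kinase of the translation factor eIF4E, at 1.33 (adjusted p = 4.25e-09), and 2 rose without ZT0 replicate 3 and 3 without ZT0 replicate 1 or ZT12 replicate 1 or 2. Without ZT0 or ZT12 replicate 2, 1 of them was called lower.

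Of the plasma protein and immune lists, Il6ra, a receptor for interleukin 6, rose by 1.44 ± 0.15 (adjusted p = 4.72e-08), from 8.82, 9.004 and 8.87 to 10.60, 10.22 and 10.21, one of 3 higher and 3 lower among 27 acute phase genes. With an array left out, 0 to 2 of these were called lower, with 0 without ZT12 replicate 1 and 1 without ZT0 replicate 1 or 2. Interferon-stimulated genes fell in 6 of 30 and rose in 1, with a median of -0.13. Oasl1 went from 8.68, 8.93 and 9.16 to 8.27, 7.81 and 8.03, a fall of 0.89 ± 0.14 (adjusted p = 2.92e-05). Stat2, a transducer of interferon signals, fell by 0.54, and Rsad2, an antiviral enzyme, by 0.82. The member called higher, Oas1a at 0.60, had 0.33 and no call without ZT0 replicate 3, and no call without ZT12 replicate 1 or 3.

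Markers of other liver cells were read beside these immune genes. None of the 19 Kupffer cell and macrophage markers was called in the fit over 36 arrays, and their median difference was -0.30, and their summed level ran from 12.41 to 12.55 (log2) at ZT0 and from 11.74 to 12.49 at ZT12. Adgre1, which encodes the macrophage marker F4/80, read 7.96, 8.20 and 8.29 at ZT0 and 7.94, 7.31 and 7.06 at ZT12, a difference of -0.72 ± 0.26 (adjusted p = 0.0765). It was called in the fit on the 6 arrays (adjusted p = 0.049), with the replicate block (0.0495), with array weights (0.0197) and without ZT12 replicate 1 (0.0234). Medians of the endothelial and stellate cell lists were -0.13 and -0.15, with 0 of 25 and 2 of 27 called. The called stellate cell genes, Col4a1 and Col4a2, each lost the call in 7 of 18 alternatives, and neither was called without ZT0 replicate 2, on the 18 chow arrays, on the 6 arrays or after quantile normalization. Rspo3, a gene of the endothelial list at -0.26, was called with array weights (adjusted p = 0.0246). Their part in the interferon result was not tested. Markers of lymphocytes, neutrophils, red blood cells, muscle and the exocrine pancreas or gut gave no call among 33 genes tested in the fit over 36 arrays. Themis, a T cell gene at 5.33, 5.17 and 5.19 at ZT0 and 6.80, 6.16 and 6.21 at ZT12, differed by 1.16 ± 0.47 (adjusted p = 0.122 in that fit), and was called in the fits on the 18 chow arrays (adjusted p = 0.000278) and on the 6 arrays (0.00175). Its ZT0 levels lay below the filter level of 6.12, which was set on the mean of all 36 arrays. On the high fat diet the means of Themis were 6.93 at ZT0 and 8.45 at ZT12. The median difference of the 11 T, B and NK cell genes tested was 0.03. Csf3r, a neutrophil gene at -0.27, was called after quantile normalization (adjusted p = 0.044). Of 6 bile duct markers, Sox9 fell by 1.01 ± 0.15 (adjusted p = 1.79e-05), from 8.60, 9.01 and 8.49 to 7.68, 7.57 and 7.83. The other 5 were not called, and the median difference of the bile duct list was 0.0008. Of 7 adipose tissue markers 1 was called lower, Lpl at -0.62 (adjusted p = 0.0386 in the fit over 36 arrays). The Lpl call was lost without ZT0 replicate 1 or 2 or ZT12 replicate 1 or 3. It was also lost on the 18 chow arrays (adjusted p = 0.0545), after quantile normalization (0.055) and without the intensity filter (0.0511).

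Other genes among the largest falls were not described with a list above. Tubb2a, a beta-tubulin, went from 10.08, 10.03 and 10.17 to 7.62, 6.97 and 7.64, by 2.68 ± 0.28 on the log2 scale (adjusted p = 4.43e-08). Tubulin genes are alike in sequence, so the probe set may read relatives. Avpr1a, a vasopressin receptor, fell by 2.18 ± 0.27 (adjusted p = 7.53e-07), from 9.84, 9.79 and 9.56 to 7.63, 7.56 and 7.46. Cldn1, a tight junction protein, fell by 2.02 ± 0.14 (adjusted p = 1.09e-11), and Aqp8, a water channel, by 2.09 ± 0.27 (adjusted p = 1.22e-06). Dhrs9, a retinol dehydrogenase that the retinoid list did not hold, fell by 2.32 ± 0.21 (adjusted p = 2.98e-09) and the lectin-like Lgalsl by 1.99 ± 0.15 (adjusted p = 1.8e-11). Each of these 6 genes had its highest mean at ZT0 and its lowest at ZT12. Slc34a2, a phosphate transporter, fell by 2.04 ± 0.23 (adjusted p = 1.32e-07), with a spread of 7.41, 8.53 and 6.95 at ZT0. Among the rises, Gpcpd1, a phosphodiesterase of choline phospholipid breakdown, gained 2.37 ± 0.22 (adjusted p = 4.66e-09), from 9.42, 9.03 and 9.14 to 11.55, 11.70 and 11.46. Gpcpd1 and Chka, 2 enzymes of choline metabolism, were thus at opposite ends of the ranking.

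The same contrast on the high fat diet uses arrays that the chow comparison does not hold. Of the 1525 genes called on chow, 1412 had the same sign there, 659 were called in the same direction and 2 in the opposite one. The difference between the diets was called for 32 genes (0.229% of those tested), of which 27 were also called on chow. In 25 of the 27 the difference was smaller in size on the high fat diet, and these genes were selected by their call on chow. The sign was opposite on the high fat diet in 8 of the 27, namely Nr1d1, Mrap, Klhl24, Als2cl, Ggt6, Extl1, Slc8b1 and Paqr9. Nr1d1 and Extl1 had the larger size there. The 5 that were not called on chow were Fgfr2, Cyp7a1, Paqr3, Pmvk and Acacb. The count of 32 moved with single arrays. It was 10 without ZT0 chow replicate 2 or ZT12 chow replicate 2, 17 and 21 without ZT12 chow replicates 1 and 3, 12 and 14 without ZT0 high fat diet replicate 3 and ZT12 high fat diet replicate 1, and 99 without ZT0 high fat diet replicate 1.

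Nr1d1 differed most. It rose by 1.23 ± 0.26 on chow and fell by 1.24 ± 0.26 on the high fat diet, from a mean of 9.99 to 8.76, and the difference of 2.47 ± 0.37 passed the test (adjusted p = 0.000578). Nr1d2 rose by 2.58 on chow and by 0.89 on the high fat diet, and Dbp by 4.04 and 2.22, with differences of 1.69 ± 0.23 and 1.82 ± 0.24 (adjusted p = 0.000199 and 0.00012). Elovl3 and Lgalsl fell by 2.19 and 1.99 on the log2 scale on chow, and by 1.01 and 0.51 on the high fat diet (adjusted p of the differences 0.00563 and 0.000199). These 5 kept their call in the 22 alternatives. Arntl, at -2.89 and -1.89, and Per3, at 2.92 and 2.17, did not pass the test of a difference between diets (adjusted p = 0.166 and 0.113).

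**Figure D5:**
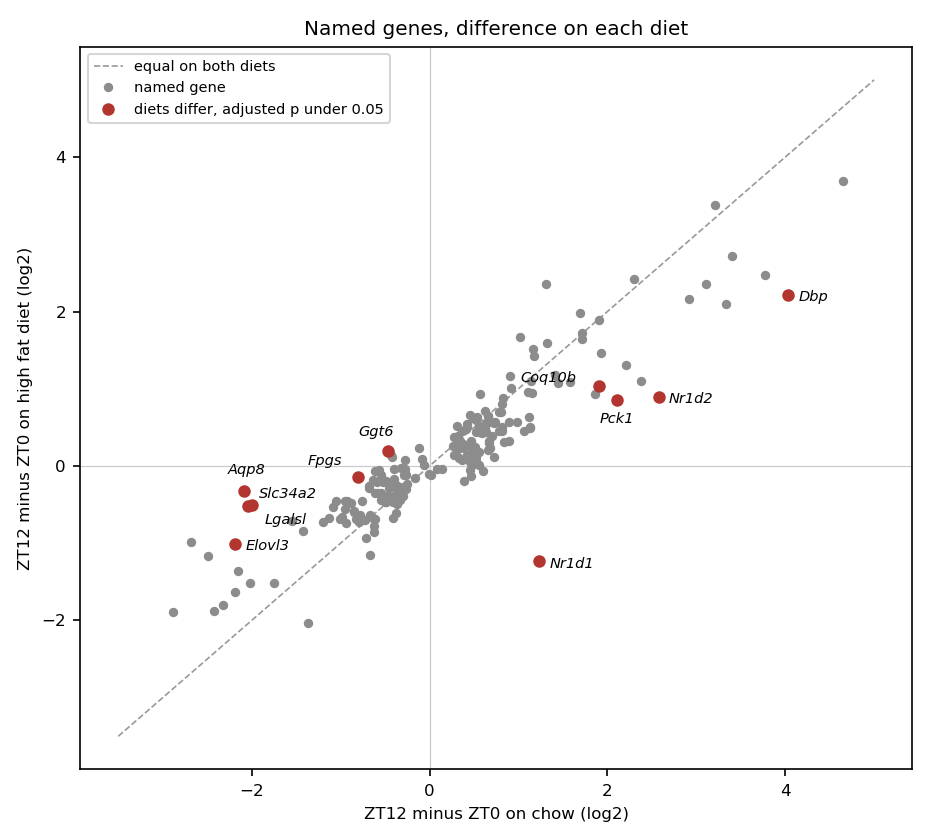
ZT12 minus ZT0 difference on the log2 scale for the 208 named genes, on chow (horizontal axis) and on the high fat diet (vertical axis). Red points are the 11 genes whose differences differ between diets at an adjusted p under 0.05, and the dashed line marks equal differences. Nr1d1 stands at 1.23 and -1.24, and the other 10 red points lie nearer to 0 on the high fat diet than on chow.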

How the data were processed

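Members, gene lists and tests were chosen with earlier results of these data known. The deposited values are 1 linear intensity per probe set and array. The authors made them with Affymetrix Expression Console 1.1.1 and PLIER 2.0, as the submitters' processing notes state. Neither the background correction nor a scaling of arrays to each other is given in the sources used here.

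Of 35556 probe sets, 21789 were paired with 1 gene by the platform annotation, 1621 with several and 12146 with none, and genes without a single-gene probe set are not analysed here. The brightest probe set stood for a gene. A gene was tested if its mean intensity passed the 30th percentile, on log2(intensity + 16), with limma 3.58.1 in R 4.3.3. The fit had 12 group means over 36 arrays (24 residual degrees of freedom), and p-values were adjusted by Benjamini and Hochberg over all tested genes. Arrays per group (3) limit the precision.

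Genes were named by rule: the 12 highest and 12 lowest called differences, every tested core clock and clock output gene, and in each other list up to 5 called genes with the smallest p, or the gene with the smallest p where none was called. Lists were described by counts. A few members outside the rule (the 6 hepatocyte genes, Hnf4a, Agpat2, Cebpd, Mt2, Tsc22d3, Nr3c1, Sgk1, Atf6, Xbp1, Extl1, Mrap, Klhl24, Als2cl, Slc8b1, Paqr9, Fgfr2, Cyp7a1, Paqr3, Pmvk and Acacb) were named after their values were seen. In simulated data with 200 of 13956 genes changed, this contrast recovered 5.97%, 70.1% and 98.5% of changes of 0.25, 0.5 and 1 on the log2 scale, and 6.45% of its calls were false. Alternatives changed the arrays fitted, the scaling, offset, filter, probe sets, prior and threshold. Same-numbered ZT0 and ZT12 arrays did not deviate together from their group means (correlations of -0.241, -0.110 and -0.147), so numbers were not taken as pairs.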

Additional observations from a re-analysis of the deposited data

Results flagged for a closer look

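A difference between the diets in the ZT12 minus ZT0 contrast, by the interaction test of the limma fit with Benjamini-Hochberg adjustment, marked 11 of the named genes. Values are the chow difference minus the high fat diet difference on the log2 scale, and their causes were not tested. They were 2.47 for Nr1d1 (adjusted p = 0.000578), 1.82 for Dbp (0.00012), 1.69 for Nr1d2 (0.000199), -1.48 for Lgalsl (0.000199) and -1.18 for Elovl3 (0.00563). These 5 calls held in each of 22 alternatives. For the others the call was lost in some alternatives. Pck1 gave 1.24 (adjusted p = 0.0212, range over alternatives 0.00054 to 0.104) and Coq10b 0.879 (0.0304, 0.0171 to 0.129). Aqp8 gave -1.76 (0.0312, 0.0124 to 0.148) and Slc34a2 -1.52 (0.0304, 0.00152 to 0.102). Fpgs gave -0.655 (0.00769, 0.00113 to 0.0576) and Ggt6, a gamma-glutamyl transferase that fell on chow by 0.47 on the log2 scale, -0.666 (0.0166, 0.00695 to 0.0772).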

How the results depend on the processing

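Genes called higher numbered 405 to 532 and genes called lower 614 to 987 with 1 of the 6 arrays left out, against 603 and 922. Without ZT0 replicate 2 the lower count was 614. At an adjusted p under 0.01 they were 363 and 567, and with a change of at least 1.5-fold added 191 and 269. Array weights gave 1550 lower genes. The count of genes that differ between the diets ranged from 10 to 99 with 1 of 12 arrays left out, where leaving out the high fat diet arrays was chosen after seeing the data, and was 61 after quantile normalization, 82 with array weights and 10 at an adjusted p under 0.01. With the replicate number as a block (replicate block), 601 genes were higher, 926 lower and 29 differed between the diets. The numbers do not pair these samples. The other alternatives kept the counts of higher and lower genes within 1.5 times. Of 194 called named genes, 139 kept their call in all 18 alternatives and 53 lost it in at least 1 fit that left out an array. The uncalled Csnk1e turned sign to -0.0294 with array weights and ran from -0.0583 to 0.0773 with an array left out, and the uncalled Btrc from -0.0525 to 0.0295. Dim genes have a difference that depends on the offset, and single arrays per sample give no measure of technical error.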

Other observations

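Among called genes that the naming rule did not reach, the genes below were chosen after their values were seen. Slc8a1, a sodium and calcium exchanger, rose by 1.83 ± 0.25 (log2, SE of the limma fit), Kcnma1, a calcium-activated potassium channel, by 1.61, and Kcnk5, another potassium channel, by 1.56. Nrg4, a secreted ligand of the ERBB4 receptor, rose by 1.79, and Erbb4 itself by 0.97. Ligand and receptor were higher at the same time of day.

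On the lower side, Grk5, a kinase of G-protein-coupled receptors, fell by 1.93 on the log2 scale, Clpx, a mitochondrial protein unfoldase, by 1.78 and Ppard, a nuclear receptor related to Ppara, by 1.62. Ppard and Ppara, which rose by 0.66, thus differed in direction. Tjp3, a scaffold protein of tight junctions, fell by 1.81, on the same side as the junction protein Cldn1 (2.02). Leap2, a liver-made peptide, fell by 1.502.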
